A study of Mus musculus with 10 samples.

Results

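The desmosomal cadherins and corneodesmosin are the adhesive proteins that hold the cells of the epidermis together and that kallikrein proteases cut when the outermost cells are shed. The 8 genes described are the desmogleins Dsg1a, Dsg1b, Dsg2 and Dsg3, the desmocollins Dsc1, Dsc2 and Dsc3, and corneodesmosin (Cdsn). They were taken by gene symbol, and all 8 stood among the 23282 entries of each table. The tables hold 5 libraries of skin with a keratinocyte-specific ablation of STAT3 (STAT3cKO) and 5 libraries of wild-type skin (WT), all from C57BL/6 mice aged 5 months. STAT3 is a transcription factor that relays cytokine and growth factor signals. The sources used here do not give the promoter that drives the ablation, the deleted exons, the sex of the mice or the body site. The labels do not tie libraries to individual mice, and p-values therefore reflect only how far these libraries scatter, which may be partly technical.

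A desmosome joins neighbouring cells through desmogleins and desmocollins, whose tails are anchored to keratin filaments by plaque proteins. In the epidermis Dsg3 and Dsc3 are known from the lower layers and Dsg1 and Dsc1 from the upper ones, while Dsg2 and Dsc2 are widespread in other epithelia. In the cornified layer the desmosome becomes a corneodesmosome, to which the secreted glycoprotein corneodesmosin is added, and its degradation by proteases such as KLK5 is held back by inhibitors such as SPINK5. Both are genes of the study's title, and setting STAT3cKO beside WT skin asks whether loss of STAT3 alters them. In humans, DSG1 is also the antigen attacked in pemphigus foliaceus, and loss of corneodesmosin causes peeling skin.

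RNA was read from the 3′ end of transcripts, so levels of different genes can be set side by side without dividing by length. The deposited values were taken to be on a log2 scale, log2 of scaled reads plus 1, on which a difference of 1 is a doubling. By estimate the smallest library held 7190000 reads and the largest 18370000, and a single read was worth 0.65 to 1.32 on that scale. STAT3cKO 2 had no read for 2617 of the 11536 tested genes and WT 3 had none for 1273, against 83 in WT 4. STAT3cKO 2 also listed Xist, which coats an inactive X chromosome, at 0.06, while the other 9 libraries had 8.65 to 11.01, and the Y-linked Ddx3y at 10.62, against 0 to 1.26 in the others. In Xist and Ddx3y, STAT3cKO 2 thus has the pattern of male tissue and the other 9 libraries that of female tissue. The labels do not mention this difference. With STAT3cKO 2 alone left out, 121 genes were called. With STAT3cKO 2 and WT 3 both left out, 94 genes were called in place of 114. Stat3 itself was 9.49 to 10.81 in STAT3cKO and 9.08 to 10.29 in WT. A transcript missing internal exons still yields 3′ reads, and other skin cells express Stat3 too. This level therefore does not check the ablation.

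Of the 8 genes, 7 passed the filter on low values (at least 5 in at least 5 libraries), and Dsg1b did not. Over all tested genes, limma called 0.988% at a Benjamini-Hochberg adjusted p under 0.05, 61 higher (0.529%) and 53 lower (0.459%) in STAT3cKO. With the libraries rescaled to the same total the split was 76 higher and 39 lower. Of the 7 tested members 0 were called by limma, and 2, Dsg1a and Dsc1, had an unadjusted p under 0.05, which 10.9% of tested genes had. The change (STAT3cKO minus WT) was positive for 6 of the 7, with a median of 1.07, beside a median of −0.16 over all tested genes and a positive change in 43.8% of them. The groups did not overlap for 1 member, Dsg1a, while 3.42% of tested genes had groups that did not overlap, 1.71% with STAT3cKO higher and 1.72% with STAT3cKO lower. All changes below are on the log2 scale with their standard error (SE).

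By level, the members fell into an abundant set and a sparse set. Averaged over the 10 libraries, Cdsn was at 11.66, Dsg1a at 11.56, Dsc1 at 10.08 and Dsc3 at 9.45, above 96.1%, 95.7%, 85.9% and 78.1% of tested genes by mean value. Dsg2 at 6.19, Dsc2 at 5.46 and Dsg3 at 4.65 lay below most tested genes, and Dsg1b averaged 1.93. Cdsn and Dsg1a could not be ordered beyond the spread of libraries: Dsg1a was the highest member in 4 of 5 STAT3cKO libraries and in 1 WT library, and Cdsn in 1 STAT3cKO and 4 WT libraries. Nor could Dsg2, Dsc2 and Dsg3, each of which spanned at least 7.69 on the log2 scale among the libraries.

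**Figure D1:**
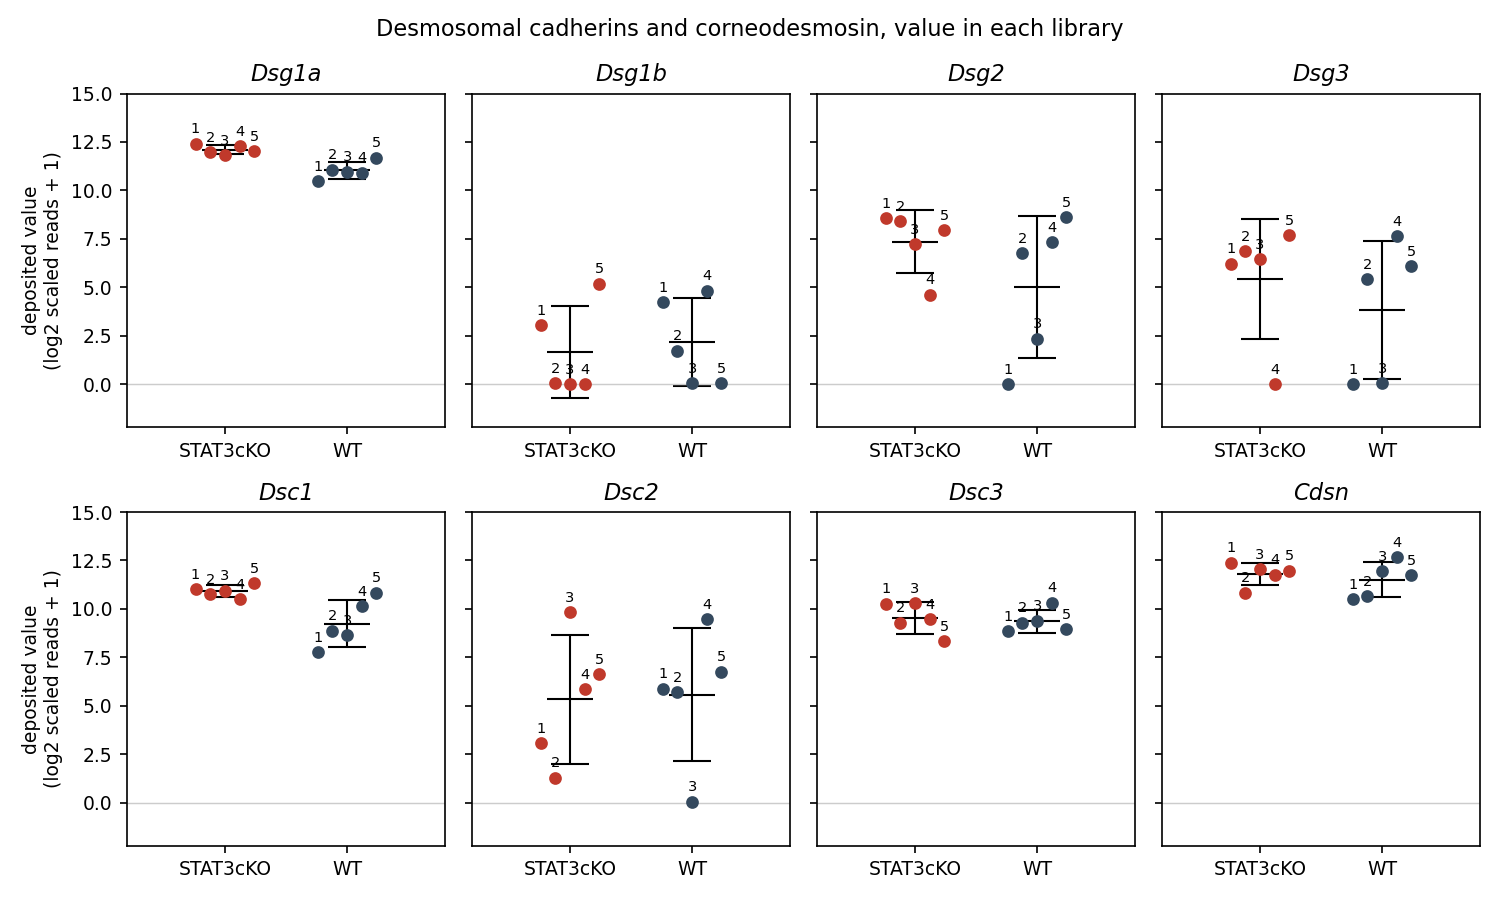
Deposited value (log2 of scaled reads plus 1) of each member in each library, STAT3cKO on the left (red) and WT on the right (dark), numbered by replicate; bars give the mean and SD of 5 libraries. Dsg1a in STAT3cKO, at 11.82 to 12.41, lies above every WT library (10.49 to 11.69), while Dsg2, Dsg3 and Dsc2 scatter between 0 and 9.84.

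Dsg1a, the most abundant Dsg1 copy in these libraries, was 12.41, 11.97, 11.82, 12.28 and 12.02 in STAT3cKO 1 to 5. In WT 1 to 5 it was 10.49, 11.08, 10.97, 10.92 and 11.69. Every STAT3cKO library lay above every WT library, and WT 5 came closest to them. The means were 12.10 ± 0.24 in STAT3cKO and 11.03 ± 0.43 in WT (SD, n = 5 each), a 2.10-fold difference. The change of 1.07 (SE 0.28, 95% interval 0.49 to 1.65) did not pass the threshold over all genes (limma adjusted p = 0.0746), and its unadjusted p ranked 177th of the 11536. It passed without WT 5 (1.23, limma adjusted p = 0.0447), the only 1 of 10 removals of a single library to pass. Over these removals the limma adjusted p reached 0.226, without WT 1. Among the 4 deeper libraries (STAT3cKO 4 and 5, WT 1 and 2) the change was 1.36 (limma adjusted p = 0.129), and among the other 6 it was 0.87 (limma adjusted p = 0.797). It was 1.09 with STAT3cKO 2 and WT 3 left out (limma adjusted p = 0.158).

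Dsg1b and its neighbour Dsg1c, which is not among the 8 genes, are further copies of the Dsg1 gene in the mouse. Dsg1b was 3.07, 0.06, 0.01, 0 and 5.19 in STAT3cKO 1 to 5 and 4.25, 1.73, 0.05, 4.83 and 0.08 in WT 1 to 5. Values up to 0.08 stand for no read, so reads were present in 2 STAT3cKO and 3 WT libraries, with at most 63 reads. Dsg1c had reads in 3 libraries, STAT3cKO 5 (2.61), WT 1 (3.71) and WT 4 (4.23), and each of these 3 also had reads of Dsg1b. The mean of Dsg1b was 1.67 ± 2.37 in STAT3cKO and 2.19 ± 2.26 in WT (SD, n = 5 each), and no test was made below the filter. Dsg1a accounted for 89.4 to 99.5% of desmoglein signal in STAT3cKO and 82.8 to 99.8% in WT.

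The 3 copies are alike in sequence, and the share of reads credited to each depends on the counting. In the GENCODE annotation, 31.6% of the 50-base words of the Dsg1a transcript also occur in Dsg1b and 18.8% in Dsg1c. In the final 500 bases of Dsg1a, where 3′ reads fall, 0 of 451 such words occur in either copy. The final 500 bases of Dsg1b share 29 of 451 with Dsg1a. The annotated 3′ untranslated region is 2305 bases long in Dsg1a, 576 in Dsg1b and 1252 in Dsg1c. Where the transcripts end in this skin, and so how many reads of Dsg1b and Dsg1c fell outside their annotated ends, was not tested. The annotation used by the authors is not named in the labels.

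Dsg3, the desmoglein of the basal and lower spinous layers, was 6.22, 6.86, 6.45, 0 and 7.69 in STAT3cKO 1 to 5. In WT 1 to 5 it was 0, 5.44, 0.06, 7.63 and 6.11. It had no read in STAT3cKO 4, WT 1 and WT 3, and the other 7 libraries spanned 6.22 to 7.69 in STAT3cKO and 5.44 to 7.63 in WT. These ranges overlap, with WT 2 and WT 5 below the 4 STAT3cKO libraries that had reads. The change of 1.60 (SE 2.02, limma adjusted p = 0.792) was smaller than its error, with a 95% interval of −2.65 to 5.84. It was 0.30 with STAT3cKO 2 and WT 3 left out (limma adjusted p = 0.971) and 0.64 to 2.96 with 1 library left out, lowest without WT 1.

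Dsg2, a desmoglein of simple epithelia and of less differentiated cells, was 8.57, 8.43, 7.22, 4.62 and 7.95 in STAT3cKO 1 to 5. In WT 1 to 5 it was 0, 6.77, 2.36, 7.33 and 8.62. The low values were those of WT 1, WT 3 and STAT3cKO 4, the 3 libraries with no read of Dsg3. The means were 7.36 ± 1.62 in STAT3cKO and 5.02 ± 3.66 in WT (SD, n = 5 each), and the change of 2.34 (SE 1.70, 95% interval −1.23 to 5.91) did not pass (limma adjusted p = 0.632). It was 1.41 with STAT3cKO 2 and WT 3 left out (limma adjusted p = 0.776) and 1.09 without WT 1 (limma adjusted p = 0.838). Exons of Dsg2 overlap those of the antisense gene Gm16090, and whether strand was used in counting is not stated. Whether the overlap lies where the 3′ reads of either gene fall was not examined, so mixing of their reads was not assessed.

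Dsc1, the desmocollin of the upper epidermis, was 11.02, 10.77, 10.95, 10.51 and 11.33 in STAT3cKO 1 to 5. In WT 1 to 5 it was 7.77, 8.88, 8.64, 10.13 and 10.84. Of the WT libraries 4 lay below every STAT3cKO library, and WT 5 lay within their range. The means were 10.91 ± 0.30 in STAT3cKO and 9.25 ± 1.22 in WT (SD, n = 5 each), a 3.17-fold difference. The change of 1.67 (SE 0.47, 95% interval 0.67 to 2.66) did not pass over all genes (limma adjusted p = 0.108). It passed without WT 5 (2.06, limma adjusted p = 0.0290), the only 1 of 10 removals of a single library to pass. Over these removals the limma adjusted p reached 0.278, without WT 3. Among the 4 deeper libraries it was 2.59 (limma adjusted p = 0.0390) and among the other 6 it was 1.05 (limma adjusted p = 0.815). It was 1.55 with STAT3cKO 2 and WT 3 left out (limma adjusted p = 0.294).

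Dsc3, the desmocollin of the lower layers, was 10.26, 9.30, 10.30, 9.48 and 8.33 in STAT3cKO 1 to 5 and 8.86, 9.30, 9.40, 10.32 and 8.96 in WT 1 to 5. The groups overlapped throughout, with means of 9.53 ± 0.81 in STAT3cKO and 9.37 ± 0.58 in WT (SD, n = 5 each). The change was 0.17 (SE 0.44, limma adjusted p = 0.910), with a 95% interval of −0.75 to 1.08.

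Set against each other within a library, Dsc1 exceeded Dsc3 in all 5 STAT3cKO libraries and in WT 5, and Dsc3 exceeded Dsc1 in WT 1 to 4. The difference Dsc1 minus Dsc3 was 0.76, 1.48, 0.65, 1.04 and 2.99 in STAT3cKO 1 to 5 and −1.09, −0.42, −0.77, −0.19 and 1.88 in WT 1 to 5. Dsc1 made up 47.6 to 86.0% of desmocollin signal in STAT3cKO and 29.4 to 75.1% in WT. The groups overlap through WT 5, and this balance is given without a test.

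**Figure D2:**
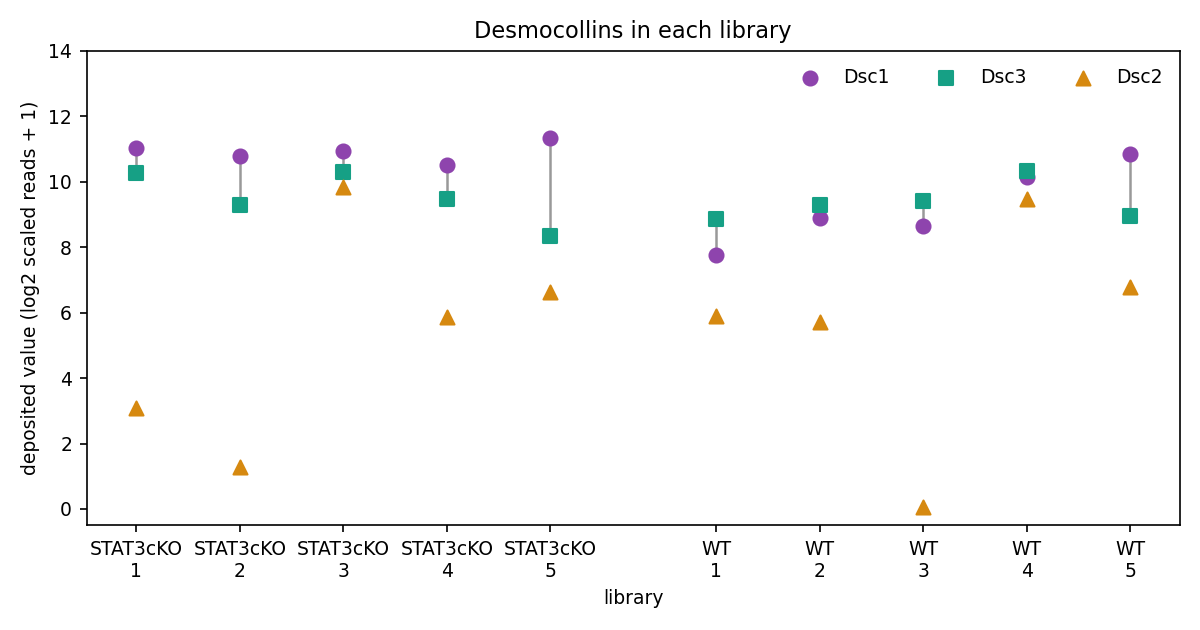
Deposited value (log2 of scaled reads plus 1) of the 3 desmocollins in each library, STAT3cKO libraries left and WT libraries right; a grey line joins Dsc1 (circle) and Dsc3 (square). Dsc1 is the upper symbol in the 5 STAT3cKO libraries and WT 5, and Dsc2 (triangle) reaches 9.84 in STAT3cKO 3 and 9.47 in WT 4.

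Dsc2, the most widespread desmocollin, was 3.07, 1.29, 9.84, 5.87 and 6.63 in STAT3cKO 1 to 5 and 5.90, 5.70, 0.06, 9.47 and 6.78 in WT 1 to 5. STAT3cKO 3 and WT 4 stood highest, 1 library in each group. The change was −0.24 (SE 1.95, limma adjusted p = 0.974) with a 95% interval of −4.35 to 3.87, and its direction turned under quantile normalization (0.16). Hair shaft genes were at their highest in the same libraries. The summed level of the 12 hair shaft markers was 18.3 in STAT3cKO 3 and 18.5 in WT 4, and 0 to 14.3 in the other STAT3cKO libraries and 4.52 to 10.5 in the other WT libraries. Of the 12, 7 were tested, 7 had a positive change and 0 were called. Among the 7 inner root sheath markers 3 were tested and 0 called, and their summed level was 18.1 and 18.2 in those libraries and 0.40 to 15.5 elsewhere. The part of these hair markers in the level of Dsc2 was not tested. With STAT3cKO 3 and WT 4 left out, a choice made after seeing the data, the change of Dsc2 was −0.39 (limma adjusted p = 0.966), that of Dsg1a 1.11 (0.108) and that of Dsc1 1.88 (0.108).

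Dsg4, the desmoglein of the hair shaft, was listed at 0 in all 10 libraries, STAT3cKO 3 and WT 4 included. Its annotated 3′ untranslated region of 218 bases is the shortest among the 10 genes examined.

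Cdsn, the glycoprotein added when desmosomes become corneodesmosomes, was 12.39, 10.84, 12.06, 11.76 and 11.97 in STAT3cKO 1 to 5. In WT 1 to 5 it was 10.51, 10.67, 11.96, 12.67 and 11.75. WT 4 was the highest of all 10 libraries, and WT 1 and WT 2 were the lowest. The means were 11.80 ± 0.58 in STAT3cKO and 11.51 ± 0.91 in WT (SD, n = 5 each). The change of 0.29 (SE 0.40, limma adjusted p = 0.812) had a 95% interval of −0.55 to 1.13. It was 0.64 with STAT3cKO 2 and WT 3 left out (limma adjusted p = 0.585), 1.27 among the 4 deeper libraries and −0.36 among the other 6. Within a library, Cdsn minus Dsc1 was 0.07 to 1.37 in STAT3cKO and 0.92 to 3.33 in WT.

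All 7 cadherins lie in a single cluster on chromosome 18 of mm10, from 19960930 to 20604521, with Dsg1c and Dsg4 among them. The desmocollins Dsc3, Dsc2 and Dsc1 run on the minus strand and the desmogleins on the plus strand. Dsc1 spans 20084184 to 20114871 and Dsg1a spans 20310811 to 20343350. Cdsn lies apart, on chromosome 17 from 35552128 to 35557180 on the plus strand, with 2 exons against 15 to 17 in the cadherins. In the cluster Dsg1a and Dsc1 had the 2 lowest p-values, and they are separated by Dsg1c, which had no read in 7 of the 10 libraries.

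The plaque proteins that tie these cadherins to keratin had positive changes in 8 of 9 genes, with a median of 0.88, and 1 was called. Over all tested genes 43.8% had a positive change and 0.988% were called. Ppl, the plakin periplakin, rose by 1.39 (SE 0.29, limma adjusted p = 0.0273). It was higher in every STAT3cKO library than in any WT library, as were 1.71% of tested genes. Perp, Dsp, Jup, Pkp1 and Pkp2 are named beside it after their values were seen. Perp, a tetraspan membrane protein of desmosomes, had a change of 1.10 (limma adjusted p = 0.101). Desmoplakin (Dsp), which binds keratin, had a change of 0.88 (limma adjusted p = 0.107). Plakoglobin (Jup), which binds the cadherin tails, had one of 1.39 (limma adjusted p = 0.166). For plakophilin 1 (Pkp1) it was 1.17 (limma adjusted p = 0.113). Pkp2, plakophilin 2, was the exception in direction. It was 0 to 6.07 in STAT3cKO and 6.11 to 8.96 in WT, a change of −5.03 (SE 1.75, limma adjusted p = 0.237). The genes of adherens junctions, the other cadherin junction of the epidermis, centred on no change. Of 6 tested, 0 were called, 4 had a positive change and the median was 0.04. Ctnnd1, p120 catenin, had a change of 0.96 (SE 0.72, limma adjusted p = 0.650) and Vcl, vinculin, one of −0.37 (SE 0.42, limma adjusted p = 0.764). Whether the desmosomal and adherens junction lists differ was not tested.

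**Figure D3:**
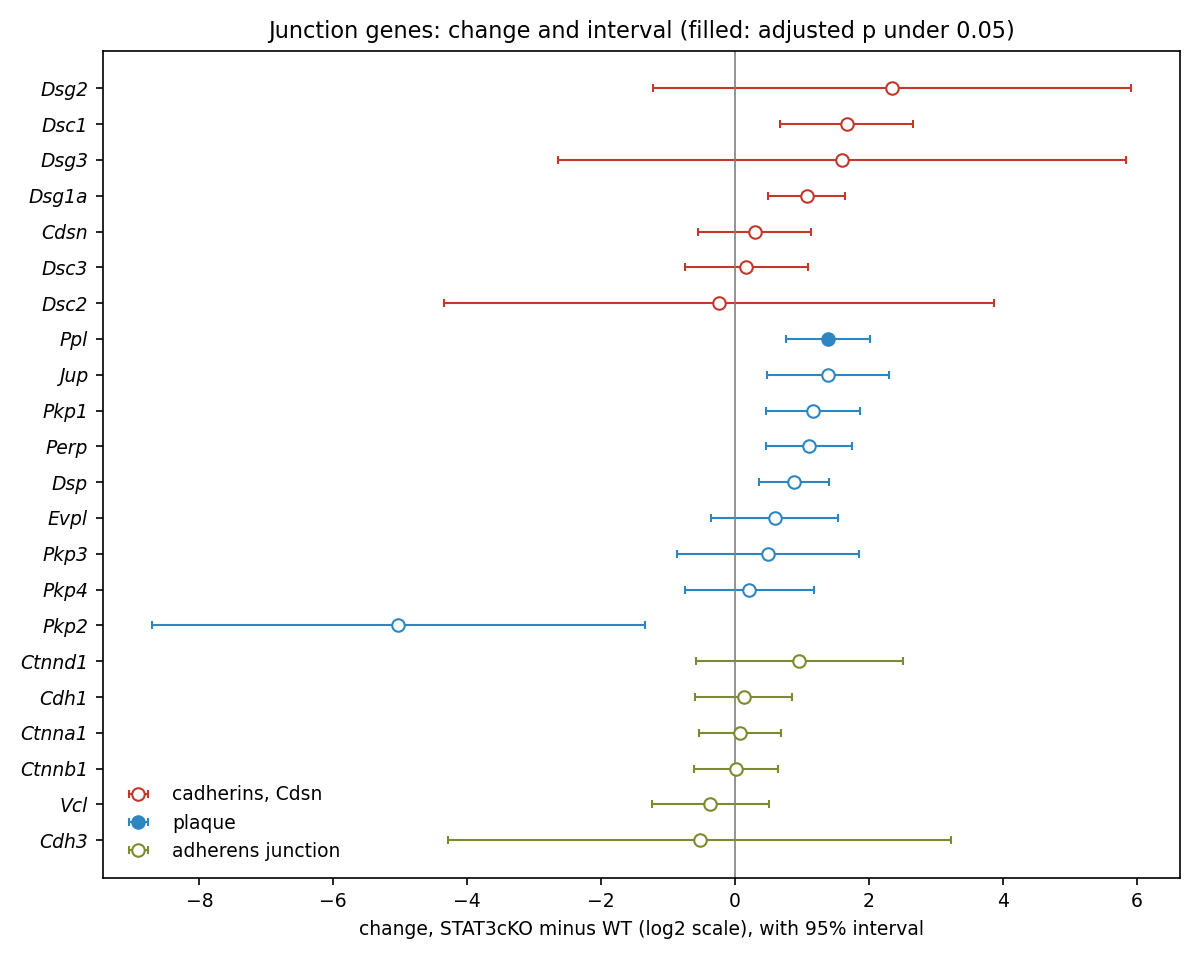
Change (STAT3cKO minus WT, log2 scale) with its 95% interval for the 7 tested members (red), 9 plaque genes (blue) and 6 adherens junction genes (green); a filled symbol marks an adjusted p under 0.05. Ppl at 1.39 is the filled one. The intervals, which are not adjusted for the number of genes, lie above 0 for Dsg1a (0.49 to 1.65) and Dsc1 (0.67 to 2.66). Those of the plaque genes Ppl, Perp, Dsp, Jup and Pkp1 also lie above 0, and that of Pkp2 lies below 0.

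In the lists of corneodesmosome proteases, their inhibitors and cadherin-processing enzymes, the called genes were 2 proteases. Of 11 tested corneodesmosome proteases 2 rose, 0 fell and 9 did not pass, with a median change of 0.76, where 0.988% of all tested genes were called. The risers were Klk5, at 10.80 ± 0.61 in STAT3cKO and 8.88 ± 0.64 in WT (SD, n = 5 each, limma adjusted p = 0.0223), and Klk10 (change 1.97, SE 0.34, limma adjusted p = 0.00622). Human KLK5 is known to cut DSG1, DSC1 and CDSN. Of 7 inhibitors 0 passed, 6 had a positive change and the median was 1.05. Serpinb6a, named after its value was seen, was the exception in direction (−0.84, SE 0.32, limma adjusted p = 0.311). The change of Wfdc5, of the whey acidic protein family, was 1.48 (SE 0.40, limma adjusted p = 0.0910). For Csta1, of the cystatin family, it was 1.05 (SE 0.31, limma adjusted p = 0.125), and for Spink5 it was 0.42 (SE 0.29, limma adjusted p = 0.607). Of 5 tested enzymes that process or shed cadherins 0 passed, with a median of 0.89. Furin, a convertase able to remove the propeptide of cadherins, had a change of 1.15 (SE 0.28, limma adjusted p = 0.0617), and its convertase relative Pcsk6 one of 2.48 (SE 0.82, limma adjusted p = 0.196).

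Among 8 tested genes of the cornified cell that carries the corneodesmosomes 1 rose and 0 fell, 8 had a positive change and the median was 1.62. Hrnr, hornerin, rose by 3.40 (SE 0.37, limma adjusted p = 1.22e-04), and Lor, loricrin, named after its value was seen, had a change of 1.96 (SE 0.44, limma adjusted p = 0.0618). Of 9 tested transcription factors known to act on desmosomal cadherins or on keratinocyte differentiation 0 passed, 8 had a positive change and the median was 0.96. The exception in direction, Cebpa, named after its value was seen, had a change of −1.07 (SE 0.50, limma adjusted p = 0.449). Klf4 had a change of 0.96 (SE 0.26, limma adjusted p = 0.0910) and Cebpb one of 1.66 (SE 0.50, limma adjusted p = 0.144). For both, every STAT3cKO library lay above every WT library, as for 1.71% of tested genes.

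Most keratinocyte markers, of the basal layer as well as the upper ones, had positive changes like Dsg1a and Dsc1, and 1 of them passed the test. In bulk skin, more cells of a layer and more RNA per cell cannot be told apart. The summed level of the 7 spinous markers was 16.2 to 17.0 in STAT3cKO and 14.7 to 16.6 in WT, with 6 of 7 changes positive, Krt77 being the exception (−0.76, limma adjusted p = 0.904), and 0 called. That of the granular markers was 16.2 to 17.0 in STAT3cKO and 13.6 to 15.999 in WT, with 7 of 7 changes positive and 1, Hrnr, called. The 8 basal markers summed to 14.5 to 15.9 in STAT3cKO and 13.3 to 15.1 in WT, with 8 positive and 0 called. In the other direction, the adipocyte markers summed to 15.3 to 17.9 in STAT3cKO and 16.7 to 19.3 in WT, with 0 of 9 changes positive and 0 called. Of 7 tested sebaceous gland markers 2 rose (Soat1 and Elovl3), while 4 of the 7 had a negative change, the lowest that of Scd3 (−6.71, limma adjusted p = 0.0520), and the median was −0.0068. Of 7 fibroblast markers 1 fell (Dpt), 3 had a positive change and the median was −0.89. The lists for muscle, macrophages, Langerhans cells, endothelium, melanocytes and simple epithelium had 0 called. None of the spinous, granular or basal markers found in the files was without reads throughout.

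Taken relative to the mean of the 7 spinous markers in its own library, Dsg1a was 0.05 ± 0.62 in STAT3cKO and 0.09 ± 0.51 in WT (SD, n = 5 each), a difference of −0.04. Dsc1 was −1.13 ± 0.82 in STAT3cKO and −1.69 ± 1.03 in WT on the same relative scale, a difference of 0.56. Cdsn was −0.24 ± 0.37 in STAT3cKO and 0.58 ± 0.86 in WT, a difference of −0.82. Relative to the 7 tested granular markers the differences were −0.30 for Dsg1a, 0.30 for Dsc1 and −1.07 for Cdsn. Relative to the 8 basal markers they were 0.48 for Dsg1a, 1.07 for Dsc1 and −0.30 for Cdsn, and relative to the 9 plaque genes 0.83, 1.42 and 0.05 in the same order. The difference of Dsg1a thus changed sign with the genes it was set against, and that of Dsc1 was positive against all 4 lists. That of Cdsn was negative against the keratinocyte lists and 0.05 against the plaque genes. The plaque mean includes Pkp2 (change −5.03), the only plaque gene with a negative change, which lowers that mean in STAT3cKO. The spinous mean likewise includes Krt77 (change −0.76), the only spinous marker with a negative change. Krt77 was 0 to 6.61 in STAT3cKO and 2.31 to 6.48 in WT, and it lowers the spinous mean in STAT3cKO. The −0.04 of Dsg1a therefore depends on this sparse gene being in the list. Levels relative to the plaque genes without Pkp2, or to the spinous markers without Krt77, were not computed. In each of these 12 comparisons the groups overlapped. They are descriptions without a test, and the part of the epidermal makeup in the levels of the members was not tested.

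**Figure D4:**
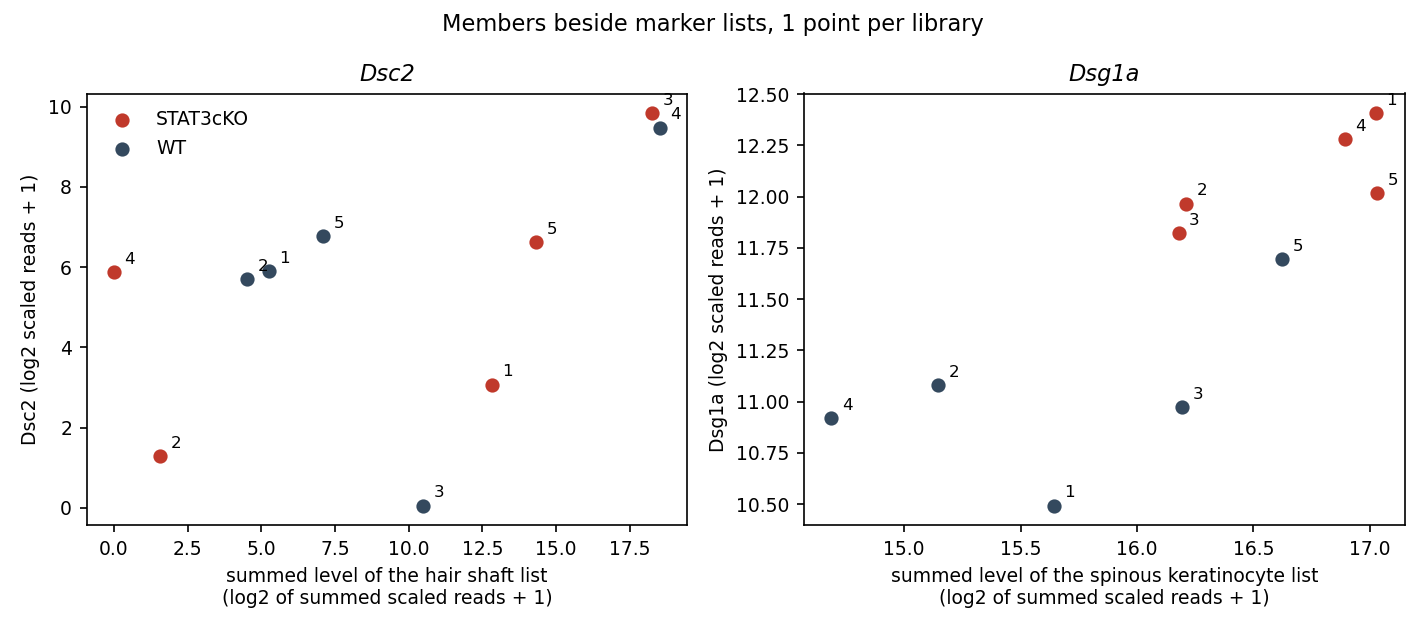
Left, Dsc2 against the summed level of 12 hair shaft markers; right, Dsg1a against the summed level of 7 spinous markers; 1 point per library, numbered by replicate, STAT3cKO red and WT dark, all axes in log2 of scaled reads plus 1. Dsc2 is highest in STAT3cKO 3 and WT 4, where hair shaft markers are at 18.3 and 18.5, and the 5 STAT3cKO libraries lie above all WT libraries in Dsg1a.

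Genes whose pattern came closest to a member's were sought among all tested genes outside the family, by Pearson's r over the 10 libraries after each group's mean was subtracted. They were picked as the highest of 11536 values, so they are given as a description. Cdsn came closest to S100a14 (r = 0.968), a calcium-binding protein of epithelia, and to Cwh43 (0.954). Dsc3 came closest to Emp2 (0.949), an epithelial membrane protein, and Hnrnpa0 (0.925). Dsc1 was nearest to Gyk (0.948) and Lypd6b (0.926), and Dsg1a to Mef2a (0.939) and Fam168b (0.917). Among the sparse members, Dsg2 was nearest to Rfx7 (0.950) and Gnal (0.950), Dsg3 to Epha4 (0.964) and Rab3ip (0.954), and Dsc2 to Exosc3 (0.970) and Smap1 (0.963). Libraries with few or no reads can weigh heavily in r for these sparse members. Dsg3, for instance, had no read in STAT3cKO 4, WT 1 and WT 3. By Spearman's rho after the same subtraction, its likeness was 0.806 to Epha4 and 0.794 to Rab3ip, the lowest among the genes named here.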

How the data were processed

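Total RNA of whole skin was extracted with Trizol and made into Lexogen QuantSeq libraries, per the labels' protocols. Bowtie2, bedtools and mm10 are named in the submitters' processing notes; annotation, strand use, scaling and versions are not stated there. No header names a unit, and the authors' deposited values were taken, from how they are spaced, as log2 of scaled reads per gene plus 1. In each library 90.0 to 100% of low values (up to 20 reads) lay within 0.15 of a whole read, which gave the estimated depths; precision is limited by counting error, and values worth under 0.5 of a read count as no read. Genes with a value of at least 5 in at least 5 libraries were tested in R 4.3.3 by limma 3.58.1 (group alone in the model, trend and robust moderation, Benjamini-Hochberg over all tested genes). A symbol that occurred before was repeated in 44 entries. These stayed among the entries filtered and tested, and a gene named here is the first entry of its symbol. No 2 libraries were identical: Pearson's r across tested genes was 0.457 to 0.737 over 45 pairs.

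The members and lists were chosen with earlier results of these data known. The rule for named genes took the members, Dsg1c, Dsg4, Spink5, Klk5, every called gene of a pathway list or, with none called, the 2 with the lowest p, and for each tested member the 2 genes of most like pattern. Genes of a pathway list that fall outside this rule are marked where named. The cell type markers Krt77, Soat1, Elovl3, Scd3 and Dpt were also named after their values were seen. Summed levels are log2 of summed scaled reads plus 1. Positions and transcript ends come from GENCODE mouse release M21 on the same build. The steps were tested on simulated data. Plots used Python 3.11.15 and matplotlib 3.10.9. Alternatives tried were filters, a pseudocount of 16, 2 scalings, moderation, library weights, a replicate block and subsets of libraries.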

Additional observations from a re-analysis of the deposited data

Results flagged for a closer look

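Dsg3 in STAT3cKO 4 was listed at 0, while the nearest of the other STAT3cKO libraries was at 6.22. The gap took up 0.81 of the group's range, above Dixon's critical value of 0.71 for 5 samples. It was 1 of 16 groups examined, and chance flags about 1 in 20 groups. Dsg2 was also at its STAT3cKO minimum in that library (4.62), and the change of Dsg3 without it was 2.96 (limma adjusted p = 0.578).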

How the results depend on the processing

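The count of 114 called genes was 175 with a pseudocount of 16, 181 with quantile normalization, 44 without trend and robust moderation, 375 with array weights, 66 with the replicate block, 174 in the 4 deeper libraries and 16 in the other 6. It was 61 to 207 with 1 library left out, lowest without STAT3cKO 1 and highest without WT 4, and 62 without WT 1, 62 without WT 2 and 72 without STAT3cKO 5. The median change of all genes was −0.16, −0.05 with libraries rescaled to the same total and −0.01 with quantile normalization.

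Filters, moderation and the replicate block leave the size of a tested member's change as it was, so its sign could not turn there. Nor could that of Dsg1a, whose groups do not overlap, turn in any subset of libraries. The change of Dsg1a was positive in all 22 alternatives (0.87 to 1.36) and passed in 3: quantile normalization (1.14, adjusted p = 0.0454), array weights (1.17, adjusted p = 0.0148) and without WT 5 (range with 1 library left out 0.93 to 1.23). That of Dsc1 was positive in all 22 (1.05 to 2.59) and passed in 3: array weights (1.87, adjusted p = 0.0239), the 4 deeper libraries (2.59) and without WT 5 (range 1.29 to 2.06). Dsc2 turned direction with quantile normalization (0.16), in the 4 deeper libraries (0.45) and without 1 library (range −1.62 to 0.77, highest without STAT3cKO 2). Dsc3 turned in the 4 deeper libraries (−0.17) and without 1 library (range −0.025 to 0.47), and Cdsn in the 6 shallower ones (−0.36). Dsg2 and Dsg3 had a positive change in every alternative run and passed in none, with ranges of 1.09 to 3.24 and 0.64 to 2.96 when 1 library was left out, both lowest without WT 1. That of Cdsn was 0.04 to 0.58, lowest without WT 1 (0.04) and WT 2 (0.08), and it was 0.53 without STAT3cKO 2. A filter floor of 7 left out Dsg3 and Dsc2, which then gave no value. The causes were not tested.

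Same-numbered STAT3cKO and WT libraries did not deviate together (r = −0.15 to 0.02 across genes). The labels do not say that replicate numbers pair libraries, and a low r cannot exclude it. With the replicate block 0 members were called, and Dsg1a had an adjusted p of 0.247 and Dsc1 one of 0.156. Without trend and robust moderation the limma adjusted p was 0.356 for Dsg1a and 0.401 for Dsc1. Dsg1b, Dsg2, Dsg3 and Dsc2 had few or no reads in some libraries, deep ones included: Dsg2 had 0 reads in WT 1, of 16660000 reads, and 262 in WT 5, of 7190000.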
